A study of Mus musculus with 141 samples.

Results

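Lipolysis and lipid droplet genes were followed in inguinal white adipose tissue (iWAT) as a set of 10 genes out of the 36558 in the table, namely Pnpla2, Lipe, Mgll, Abhd5, G0s2, Plin1, Cidec, Adrb3, Pde3b and Hcar1. They were chosen by name, as the lipases, their regulators, the droplet proteins and the receptors and enzyme that switch lipolysis on and off. All 10 were found in both the count and the TPM table, and all 10 passed the filter on low counts. Inbred strains of the Hybrid Mouse Diversity Panel (HMDP) supplied the tissue, which was profiled by RNA-seq in 67 female and 74 male libraries of 82 strains. In 59 strains a female and a male library were both present, 8 strains had only a female and 15 only a male library. The strains comprised 24 classical inbred strains and 40 BXD, 11 AXB/BXA, 4 BXH and 3 CXB recombinant inbred strains, which descend from pairs of inbred parents. Counted among the BXD strains is BXD24/TyJ-Cep290<rd16>/J, whose label names the rd16 allele of Cep290. All mice, female and male, ate chow until 8 weeks of age and then a high-fat, high-sucrose diet for 8 weeks, and tissue was collected after a fast of 4 h. Each strain and sex is represented by 1 library, and p-values therefore measure the spread between these libraries.

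Adipocytes store triglyceride in a lipid droplet and release it through a chain of lipases, in which adipose triglyceride lipase removes the first fatty acid, hormone-sensitive lipase the next and monoglyceride lipase the last. Catecholamines start the chain through beta-adrenergic receptors, cAMP and protein kinase A, which phosphorylates hormone-sensitive lipase and the droplet coat protein perilipin 1. Insulin acts in the opposite direction, largely through a phosphodiesterase that breaks down cAMP, and lactate does so through a receptor of its own.

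Estimated counts per library summed to between 6269154 and 78562648 (median 30233245), and the lowest estimated count of any of the 10 genes in any library was 71, for Hcar1, against a floor of 3 counts. The adipocyte markers Adipoq, Cfd, Retn, Car3 and Adig were present throughout, and their summed level in CPM (counts-per-million) was 2495 to 27854 in females and 5038 to 38840 in males of the matched strains. In 3 libraries the Y-linked genes went against the labelled sex. They are the female BXD34/TyJ library, which was also the shallowest and had 29.9% of its counts from mitochondrially encoded genes, the female BXD69/RwwJ library, and the library labelled male NZW/LacJ, of which only NZW/LacJ belongs to the matched strains. Levels of different genes are compared in transcripts-per-million (TPM), which accounts for transcript length, and libraries are compared in CPM scaled by the trimmed mean of M-values (TMM).

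The promoters of 5 genes are shown, all of them lower in females in the comparison of the sexes, and these are the lipase Pnpla2, its activator Abhd5, its inhibitor G0s2, the lipase Mgll and the droplet gene Cidec. RefSeq promoter entries on GRCm38.p6 matched 8 of the 10 genes with 11 transcription starts, and Pde3b and Adrb3 were the other two genes. Each line gives the 150 bases before a start, 5′ to 3′ on the strand of the gene. The stretches lie at chr7:141455038-141455187 on the plus strand for Pnpla2, at chr9:122351466-122351615 on the plus strand for Abhd5 and at chr1:193273189-193273338 on the minus strand for G0s2. Those of the first listed starts of Mgll and Cidec lie at chr6:88724262-88724411 on the plus strand and at chr6:113435761-113435910 on the minus strand. Capitals mark a searched motif, and TGACCT in Abhd5 is AGGTCA read on the other strand.
Pnpla2: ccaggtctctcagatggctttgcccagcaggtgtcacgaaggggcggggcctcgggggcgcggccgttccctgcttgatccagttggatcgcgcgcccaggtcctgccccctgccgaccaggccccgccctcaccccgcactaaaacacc
Abhd5: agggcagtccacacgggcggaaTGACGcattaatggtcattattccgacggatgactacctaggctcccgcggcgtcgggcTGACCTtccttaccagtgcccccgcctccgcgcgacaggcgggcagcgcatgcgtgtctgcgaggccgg
G0s2: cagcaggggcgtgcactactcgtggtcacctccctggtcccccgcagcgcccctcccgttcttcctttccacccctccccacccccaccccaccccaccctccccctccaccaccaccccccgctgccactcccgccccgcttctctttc
Mgll: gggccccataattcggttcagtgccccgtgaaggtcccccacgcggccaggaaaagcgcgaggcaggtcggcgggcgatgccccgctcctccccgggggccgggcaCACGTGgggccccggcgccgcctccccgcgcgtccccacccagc
Cidec: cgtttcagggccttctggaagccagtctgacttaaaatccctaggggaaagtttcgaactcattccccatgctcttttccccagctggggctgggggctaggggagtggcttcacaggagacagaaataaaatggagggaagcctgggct

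The letters of 5 motifs were searched on both strands in the 250 bases before each start. Abhd5 held the nuclear receptor half-site AGGTCA at -69 and the cAMP response element half-site TGACG at -128, which do not overlap. Mgll held the E-box CACGTG at -44 of its first start and Lipe held it at -155, outside the 150 bases used for the lines above. G0s2 held TGACG at -246, also outside them. The TATA box TATAAA and CCAAT were in none of the 11 windows. Of all 32851 promoters of the same length, AGGTCA was in 14%, TGACG in 17.8%, CACGTG in 6.02%, TATAAA in 12.4% and CCAAT in 33.8%. A match describes letters in a window and not a site.

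On GRCm38 with GENCODE M21 gene models, Pnpla2 lies at chr7:141455198-141460743, Lipe at chr7:25379527-25398710 and Mgll at chr6:88724412-88828360. Abhd5 lies at chr9:122351608-122381524, G0s2 at chr1:193272161-193273217, Plin1 at chr7:79720218-79732903 and Cidec at chr6:113424634-113435760. Adrb3 lies at chr8:27225776-27250616, Pde3b at chr7:114415281-114539251 and Hcar1 at chr5:123876736-123880020. G0s2 overlaps the protein-coding Lamb3 on the opposite strand, and Lipe, Mgll, Abhd5 and Adrb3 overlap antisense genes, so their values are uncertain where reads were not assigned by strand. The study's methods describe the libraries as stranded, while the strand setting used in quantification is not given in the sources used here.

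Cidec, which encodes a protein that enlarges droplets by passing lipid between them, had the highest median TPM of the 10 genes in both sexes, 945 TPM in females and 1525 TPM in males. Plin1, the coat protein that guards the droplet, followed with median levels of 779.7 TPM in females and 1015 TPM in males. Pnpla2, which encodes adipose triglyceride lipase, had median levels of 747 TPM and 914 TPM. The last step was within the spread, since Plin1 was above Pnpla2 in 32 of 67 female and 43 of 74 male libraries, while Cidec was above Plin1 in 51 and 67 libraries. Lipe, for hormone-sensitive lipase, had median levels of 538 TPM and 736 TPM and was below Pnpla2 in 66 of 67 female and 69 of 74 male libraries. Mgll, for monoglyceride lipase, had median levels of 431 TPM and 626 TPM and was below Lipe in 52 of 67 and 50 of 74 libraries.

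Below these 5 genes lay a clear step in TPM. G0s2, the inhibitor of adipose triglyceride lipase, had median levels of 165 TPM in females and 231 TPM in males and was below Mgll in all 67 female and all 74 male libraries. Adrb3, the beta-3 adrenergic receptor of adipocytes, was the one gene with a lower median level in males, at 126.8 TPM in females and 90.2 TPM in males. Pde3b, the phosphodiesterase that insulin activates, had median levels of 71.2 TPM and 98.5 TPM, and Abhd5, the activator of adipose triglyceride lipase, had 63.2 TPM and 89.1 TPM. In females Pde3b was above Abhd5 in 39 of 67 libraries, and in males Pde3b was above Adrb3 in 39 of 74 and Adrb3 above Abhd5 in 40 of 74, so these neighbours did not differ beyond their spread. Hcar1, the lactate receptor, had the lowest median levels, 29.4 TPM and 30.9 TPM, and was below Abhd5 in 67 of 67 female and 73 of 74 male libraries.

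**Figure D1:**
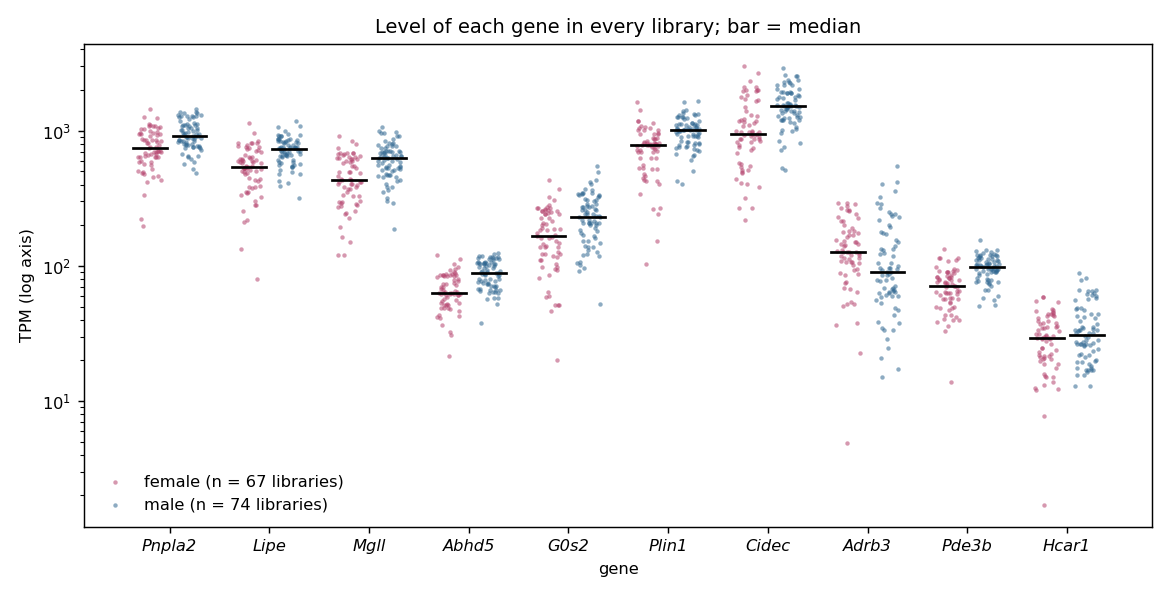
Level of each gene in TPM (vertical log axis) in every library, with 67 female (pink) and 74 male libraries (blue) as points and the median as a bar. Cidec, Plin1 and Pnpla2 had the highest and Hcar1 the lowest medians, and the points of females and males overlapped for every gene.

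The genes differed in how widely their TPM levels varied between strains. Adrb3 varied most in males, from 14.998 TPM in BXA11/PgnJ to 548 TPM in SM/J, a coefficient of variation of 82.2%. In females Adrb3 ran from 4.89 TPM in BXD34/TyJ, the shallow library that goes against its label, to 290.8 TPM in AXB5/PgnJ. At the other end, Pde3b in males ran from 50.2 TPM in SJL/J to 155 TPM in BXD43/RwwJ, a coefficient of variation of 21.1%. Cidec had coefficients of variation of 55.7% in females and 31.8% in males, and its highest level came from the same strain in both sexes, BXD24/TyJ-Cep290<rd16>/J, at 3022 TPM in the female and 2910.2 TPM in the male library. The coefficient of variation was higher in females for 8 of the 10 genes, and higher in males for Adrb3 and Hcar1.

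In the 59 matched strains 9 of the 10 genes were lower in females than in males and none was higher (quasi-likelihood test in edgeR with strain and sex as terms, Benjamini-Hochberg adjusted p under 0.05). Of all 16765 genes tested, 29.8% were lower and 28.4% were higher in females. The median log2 fold change (log2FC, female vs. male) was -0.55 over the 10 genes and 0.01 over all genes tested. In bulk tissue, fewer adipocytes and less RNA per adipocyte cannot be told apart.

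All 3 lipases were lower in females, with overlapping ranges. Pnpla2 averaged 1042 ± 409.6 CPM (SD, n = 59) in females against 1400.4 ± 453 CPM in males, a log2FC of -0.43 with a standard error of 0.09 (edgeR, adjusted p = 5.6e-05), and was lower in the female of 47 of 59 strains. Lipe averaged 827 ± 337 CPM in females against 1199.5 ± 309.7 CPM in males, a log2FC of -0.58 with a standard error of 0.10 (adjusted p = 5.51e-07), and was lower in 48 strains. Mgll averaged 1303.5 ± 583 CPM in females against 1850.4 ± 641 CPM in males, a log2FC of -0.54 with a standard error of 0.10 (adjusted p = 1.15e-05), and was lower in 48 strains. The fitted female levels were 74.1% of the male level for Pnpla2, 66.7% for Lipe and 68.8% for Mgll. The ratio of Lipe to Pnpla2 in TPM was lower in the female of 37 of 59 strains, by -0.13 ± 0.29 on the log2 scale (two-sided permutation test of signs, p = 0.00119, adjusted over the 6 ratios tested p = 0.00238).

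The activator and the inhibitor of adipose triglyceride lipase were both lower in females. Abhd5 averaged 106.96 ± 40.4 CPM (SD, n = 59) in females against 153 ± 51.1 CPM in males, a log2FC of -0.51 with a standard error of 0.09 (edgeR, adjusted p = 3.78e-06), lower in 49 of 59 strains. G0s2 was at 90.3 ± 46.97 CPM and 136.03 ± 58.6 CPM, a log2FC of -0.63 with a standard error of 0.12 (adjusted p = 1.83e-05), lower in 42 strains. Their ratio did not pass the test. The TPM ratio of Abhd5 to G0s2 had a median of 0.396 in females and 0.402 in males, and the within-strain difference was 0.13 ± 0.62 on the log2 scale (permutation test of signs, p = 0.117, adjusted over the 6 ratios p = 0.14). The ratio to Pnpla2 differed by -0.17 ± 0.66 for G0s2 (permutation test of signs, p = 0.0486, adjusted p = 0.073). That of Abhd5 to Pnpla2 differed by -0.05 ± 0.36 (p = 0.33, adjusted p = 0.33).

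The droplet genes Cidec and Plin1 were lower in females as well, and Cidec had the lowest log2FC of the set. Cidec averaged 1079 ± 631 CPM (SD, n = 59) in females against 1661.5 ± 629 CPM in males, a log2FC of -0.72 with a standard error of 0.12 (edgeR, adjusted p = 3.37e-07), lower in 51 of 59 strains. Plin1 was at 1175 ± 481 CPM and 1741 ± 497 CPM, a log2FC of -0.61 with a standard error of 0.10 (adjusted p = 5.27e-07), lower in 49 strains. The fitted female level was 60.6% of the male level for Cidec and 65.6% for Plin1.

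Of the signalling genes, Pde3b and Hcar1 were lower in females. Pde3b averaged 273 ± 93.7 CPM (SD, n = 59) in females against 401 ± 114.3 CPM in males, a log2FC of -0.56 with a standard error of 0.07 (edgeR, adjusted p = 1.72e-09), lower in 51 of 59 strains. Hcar1 was at 76.96 ± 33.4 CPM and 104.7 ± 63.7 CPM, a log2FC of -0.31 with a standard error of 0.12 (adjusted p = 0.027), lower in 36 strains, and its call was lost when counts were scaled by library totals (adjusted p = 0.0894).

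Adrb3 stood apart from the other 9 genes. It averaged 208 ± 120.3 CPM (SD, n = 59) in females against 204 ± 181 CPM in males, and was lower in the female of 23 of 59 strains. Its log2FC of 0.33, with a standard error of 0.16, did not pass the threshold in edgeR (adjusted p = 0.0774), but did under 8 of 14 alternatives, among them DESeq2 (log2FC 0.33, adjusted p = 0.0409) and limma-voom (log2FC 0.41, adjusted p = 0.0237). Over those 14 the log2FC ran from 0.06 to 0.53 and the adjusted p from 1.6e-05 to 0.827. Between strains its difference ran from -3.03 in AXB12/PgnJ, with 53.5 CPM in the female and 439 CPM in the male library, to 2.85 in BXD79/RwwJ, with 406 CPM and 56.1 CPM. The ratio to Pnpla2 takes in the fall of Pnpla2 in the same libraries and does not test Adrb3 alone. Within strains the mean difference was -0.47 for Pnpla2 and 0.29 for Adrb3 on the log2 scale. The TPM ratio of Adrb3 to Pnpla2 had a median of 0.183 in females and 0.104 in males and was lower in the female of only 9 of 59 strains, a difference of 0.71 ± 0.85 on the log2 scale (permutation test of signs, p = 1e-05, the smallest it can give, adjusted over the 6 ratios p = 3e-05). The ratio of Hcar1, itself lower in females, to Adrb3 was lower in the female of 46 strains, by -0.58 ± 0.68 (permutation test of signs, p = 1e-05, adjusted p = 3e-05).

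Of the other 9 genes, each of them called lower and lower in the female of 36 to 51 strains, all 9 were lower in the female library of 26 of the 59 strains, and 8 of the 9 in another 14. In 3 strains none of the 9 was lower in the female, namely BXD85/RwwJ, BXD40/TyJ and NZW/LacJ, and the last of these holds the library whose Y-linked genes go against its label. The lowest mean difference over the 9 genes was in AXB12/PgnJ, -3.12 on the log2 scale, where Plin1 was at 219 CPM in the female and 2776 CPM in the male library. That female library was among the 5 lowest females for all 10 genes. Its adipocyte marker score was 7.68 (mean log2 CPM), the lowest of all libraries, its lymphocyte marker score was 7.17 and its muscle marker score 5.27. Without NZW/LacJ 9 genes were lower and Adrb3 was not called (adjusted p = 0.0818), and without AXB12/PgnJ, left out after seeing the data, 9 genes were lower and Adrb3 was higher (log2FC 0.38, adjusted p = 0.0346).

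**Figure D2:**
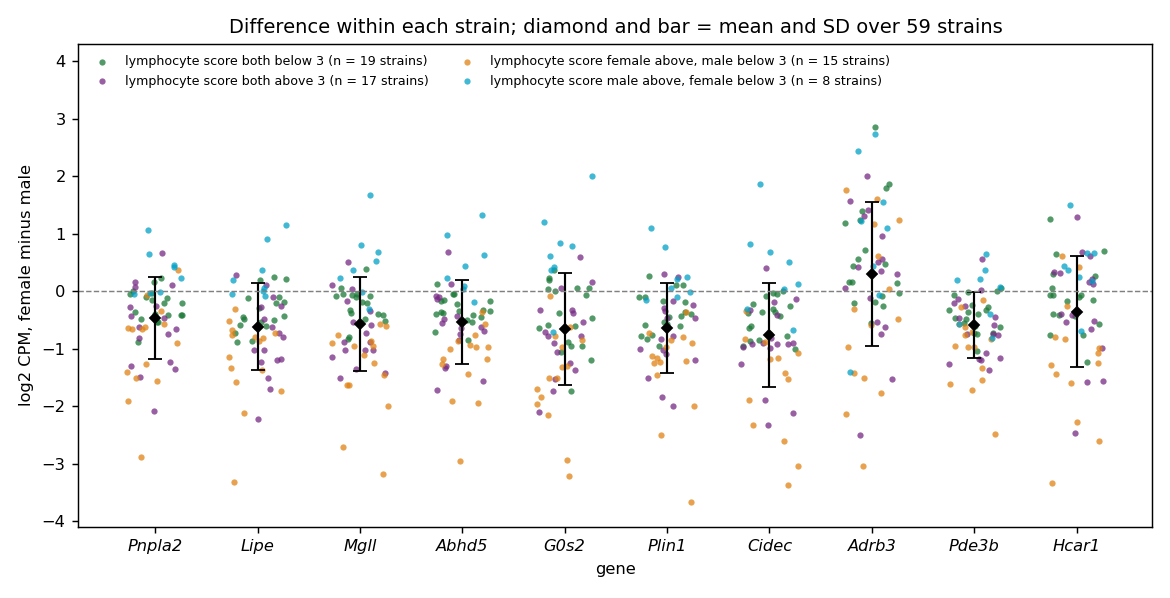
Difference in log2 CPM, female minus male (vertical axis), for each gene in each of the 59 matched strains, coloured by the side of 3 on which the lymphocyte scores of the female and male library fell, with the mean and SD over strains in black. The 15 strains with only the female score above 3 (orange) had the lowest mean for every gene, and the 8 with only the male score above 3 (light blue) the highest.

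Markers of other cell types moved with sex, most of all those of mammary epithelium. All 9 epithelial markers were higher in females (median log2FC 6.90), and their summed level in the matched strains was 83.4 to 2160.3 CPM in females and 0.295 to 464 CPM in males, where the highest value came from NZW/LacJ and the next, 316 CPM, from PL/J. With the mean log2 CPM of these markers as a covariate none of the 10 genes was called by edgeR (0 at an unadjusted p under 0.05, the lowest being 0.427), with log2FC from -0.20 to 0.36, and only 8 of all 16765 genes were called at all. The epithelium score was lower in the female in 1 of 59 strains, so in this model sex and mammary epithelium cannot be told apart.

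Within 1 sex the epithelium score could be set against the genes. In females 1 of the 10 genes was correlated with it by the adjusted p of Pearson's r, where 20% of all genes were, and 5 by that of Spearman's rho, where 32.2% of all genes were. The gene that passed by both was Cidec (Pearson r = -0.36, Spearman rho = -0.42, n = 67, permutation p = 0.00294 and 0.00059, adjusted p = 0.0209 and 0.0038, r = -0.35 without the 2 libraries farthest from the median score). By rho Lipe (-0.38, permutation p = 0.00152, adjusted p = 0.00788), Mgll (-0.35, 0.00374 and 0.016), Plin1 (-0.39, 0.0011 and 0.00613) and Pde3b (-0.41, 0.00076 and 0.0046) passed as well. Their Pearson r lay between -0.25 and -0.24 with all 67 libraries, and was -0.32, -0.31, -0.34 and -0.41 without the 2 farthest, which are the female BXD34/TyJ and BXD69/RwwJ libraries that go against their label. On log2(TPM + 1) for gene and score, with all 67 libraries, r was nearer 0 for these genes, at -0.22 for Cidec, -0.06 for Lipe, -0.12 for Mgll, -0.08 for Plin1 and -0.09 for Pde3b. Within the sides of the lymphocyte division described next, r of the 9 genes other than Adrb3 ran from -0.48 to 0.37 at the lower and from -0.16 to 0.24 at the higher score in females. In males 2 of 10, Abhd5 and G0s2, were correlated with the epithelium score by Pearson's r, where 14.3% of all genes were, and 1, Abhd5, by Spearman's rho, where 20.1% were. Abhd5 had r = -0.35 and rho = -0.40 (n = 74, permutation p = 0.00238 and 0.00055, adjusted p = 0.0244 and 0.00811), and G0s2 r = -0.34 and rho = -0.29 (permutation p = 0.0034 and 0.0118, adjusted p = 0.0309 and 0.0555). Without the 2 farthest libraries r was -0.17 and rho -0.36 for Abhd5, and r was -0.15 and rho -0.25 for G0s2. These 2 are NZW/LacJ, the library labelled male that goes against its label, with an epithelium score of 5.06, and PL/J with 4.47, the next male library being at 1.60. Without NZW/LacJ alone Abhd5 had r = -0.21 and rho = -0.37, and G0s2 had r = -0.19 and rho = -0.26 (n = 73), so the size of Pearson's r in males depended on a library against its label. Within the sides of the lymphocyte division r was -0.31 at the lower and -0.30 at the higher score for Abhd5, and -0.12 and -0.41 for G0s2.

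With the mean log2 CPM of the 5 adipocyte markers as a covariate, 9 genes remained lower in females, by between 0.17 (Hcar1) and 0.58 (Cidec) on the log2 scale, and Adrb3 was higher (edgeR, log2FC 0.53, adjusted p = 1.6e-05). Of these 5 markers Adipoq and Car3 were lower in females and the others were not called. All 6 macrophage and all 3 endothelial markers were lower in females, 2 of 3 progenitor markers were higher, and none of the 6 lymphocyte, 6 brown and beige adipocyte and 4 tested skeletal muscle markers was called. The part of macrophages, endothelium and progenitors in the values of the 10 genes was not tested.

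**Figure D3:**
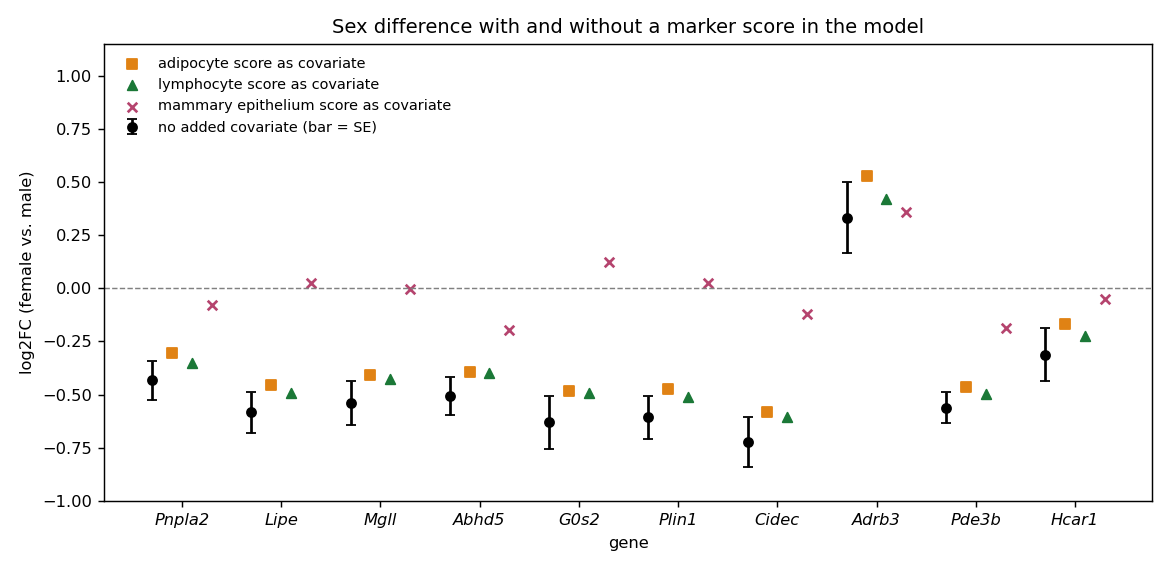
Log2FC (female vs. male) of each gene over the 59 matched strains with no added covariate (black, bar = standard error) and with the adipocyte (orange), lymphocyte (green) or mammary epithelium score (pink crosses) in the model. In the first 3 settings 9 genes lay below 0 and Adrb3 above it, and with the epithelium score the values lay between -0.20 and 0.36.

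Lymphocyte marker scores were mostly either low or high in each sex, with few libraries between. The mean log2 CPM of 6 B and T lymphocyte markers, among them Cd79a, Ms4a1 and Cd3e, was at or below 3 in 34 female and 42 male libraries and above 3 in 33 and 32, with only 3 female and 2 male libraries within 1 of that value, which was chosen after seeing the scores. In females the median of Cidec was 1428 CPM (659.6 to 3458) at the lower and 719.6 CPM (208 to 1660) at the higher score. In males it was 2019 CPM (1161 to 3555) and 1119.7 CPM (462 to 2585), where the 462 CPM is NZW/LacJ, the library that goes against its label. The ranges overlapped. Mgll had medians of 1759 and 863 CPM in females and 2099.6 and 1273 CPM in males, and Plin1 had 1408.5 and 842 CPM in females and 1859.5 and 1312 CPM in males. Adrb3 was the exception, with medians of 173 and 159.99 CPM in females and 112.2 and 124.7 CPM in males.

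In strains whose female and male library fell on the same side of that division, 8 of the 10 genes were again lower in females. In the 19 strains with both scores below 3 these 8 compare with 21% of all genes that were lower, and Adrb3 was higher, as were 17.9% of all genes. There Pnpla2 had a log2FC of -0.24 with a standard error of 0.06 (edgeR, adjusted p = 0.00591) and Cidec one of -0.45 with a standard error of 0.08 (adjusted p = 0.00013). Lipe, Mgll and Plin1 were at -0.35, -0.25 and -0.36, beside -0.58, -0.54 and -0.61 over all 59 strains. Adrb3 had a log2FC of 0.61 with a standard error of 0.19 (adjusted p = 0.0163), and Hcar1 was not called (-0.09, standard error 0.13, adjusted p = 0.627). In the 17 strains with both scores above 3 the 8 genes compare with 20.3% of all genes that were lower, while 19.4% were higher. There Pnpla2 had a log2FC of -0.61 with a standard error of 0.16 (adjusted p = 0.00594) and Cidec one of -0.89 with a standard error of 0.16 (adjusted p = 0.000306). Lipe, Mgll and Plin1 were at -0.80, -0.68 and -0.72. Neither Adrb3 (0.25, adjusted p = 0.492) nor Hcar1 (-0.28, adjusted p = 0.331) was called, and the difference between these sets of strains was not tested.

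Where only 1 library of a strain had a lymphocyte score above 3, the lower levels lay mostly in that library. Its part in the sex difference was not tested beyond the values given here. In the 15 strains with only the female score above 3, Plin1 was lower in the female in all 15, with a difference of -1.35 ± 0.82 on the log2 scale. In the 8 strains with only the male score above 3, Plin1 was lower in the female in 3, with a difference of 0.27 ± 0.45. These 8 include NZW/LacJ, whose male library goes against its label and whose Plin1 difference of 1.11 was the highest of them, and without it Plin1 was at 0.15 ± 0.32 and lower in 3 of 7. Lipe, Mgll, Abhd5, G0s2, Cidec and Pde3b were also lower in the female in all 15 of the former, and in 1 to 3 of the 8 latter, or of the 7 without NZW/LacJ. The mean difference in the latter was above 0 for these genes other than Pde3b, which was at -0.04, and at -0.10 (-0.0969) without NZW/LacJ. Without that strain the difference went from 0.38 to 0.17 for Cidec, from 0.32 to 0.20 (0.196) for Lipe and from 0.49 to 0.33 for Mgll. With the lymphocyte score as a covariate over all 59 strains, chosen after seeing the data, 8 genes were lower, Hcar1 was not called (edgeR, adjusted p = 0.0611) and Adrb3 was higher (log2FC 0.42, adjusted p = 0.0166).

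A further 44 genes of lipolysis and the lipid droplet were listed, of which 42 were tested, Fitm1 and Hsd17b13 being removed by the filter on low counts. In females 30 were lower, 1 was higher and 11 did not pass the threshold, with a median log2FC of -0.26. Of all 16765 genes tested 29.8% were lower and 28.4% higher, with a median log2FC of 0.01. The largest decreases were in Npr3, the clearance receptor for natriuretic peptides (log2FC -1.11, standard error 0.18, edgeR adjusted p = 5.47e-07), and in the droplet coat genes Plin4 (-0.95, standard error 0.12, adjusted p = 7.96e-10) and Plin5 (-0.79, standard error 0.13, adjusted p = 3.16e-07). Npr3 averaged 918 ± 646 CPM in females against 1637 ± 621 CPM in males, and Plin4 at 2409 ± 1210.5 CPM and 4333 ± 1241 CPM. The gene that rose was Adra2a, the alpha-2A adrenergic receptor, which lowers cAMP (log2FC 0.97, standard error 0.14, adjusted p = 1.58e-08). It averaged 4.12 ± 2.00 CPM in females against 2.28 ± 1.42 CPM in males and was lower in the female in 10 of 59 strains.

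Values of genes between receptor and lipase are given with the edgeR adjusted p of each in parentheses, and differences between genes were not tested. The adenylate cyclase Adcy5 fell in females by 0.78 on the log2 scale (1.03e-07), Adcy3 by 0.32 (4.62e-06) and Adcy6 by 0.23 (0.000124). Among subunits of protein kinase A, the regulatory Prkar2b fell by 0.71 (6.43e-09) and the catalytic Prkaca by 0.39 (1.67e-05), whereas the catalytic Prkacb was at -0.02 (0.742). The beta-1 adrenergic receptor Adrb1 did not pass the threshold, at -0.16 (0.103). Of receptors that restrain lipolysis, the adenosine receptor Adora1 fell by 0.67 (8.26e-08) and the niacin receptor Hcar2 by 0.42 (0.000716). The phosphodiesterase Pde4d fell by 0.21 (0.000812) and Pde4b was at 0.09 (0.359). Among further droplet proteins Plin2 fell by 0.44 (0.000136), while Plin3 was at -0.11 (0.0603) and Cidea at -0.33 (0.195). Aqp7, a glycerol channel, fell by 0.67 (3.88e-08) and Fabp4, a fatty acid carrier, by 0.53 (1.65e-05).

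Whether strains differ beyond the spread between their female and male libraries was asked in the same model. Over 59 strains 3 of the 10 genes were called, where 71.2% of all genes were. These were Adrb3 (F = 2.19, edgeR adjusted p = 0.00411), Cidec (F = 1.71, adjusted p = 0.0322) and Pde3b (F = 1.68, adjusted p = 0.0353). Lipe had the lowest F, 1.01 (adjusted p = 0.489), and ranked 16400 of 16765 by p. With limma on log2(TPM + 1) 2 genes were called, where 66.5% of all genes were, and these were Adrb3 (adjusted p = 0.00452) and Cidec (0.0157), while the call of Pde3b was lost (0.0668). The count rose with cell marker scores in the model and without 1 strain, as did the share of all genes called. With the adipocyte score as a covariate 10 genes were called, where 86.3% of all genes were, with the lymphocyte score 7, where 81.2% were, and without AXB12/PgnJ 5, where 77.3% were.

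The count also differed between the sides of the lymphocyte division. In the 19 strains with both scores below 3 all 10 genes were called, where 65.2% of all genes were, with adjusted p from 2.83e-05 (Pnpla2) to 0.0176 (G0s2). In the 17 strains with both scores above 3 none of the 10 was called by edgeR (1, Cidec, at an unadjusted p under 0.05), where 31.5% of all genes were, with adjusted p from 0.104 (Cidec) to 0.73 (Pde3b).

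The correlation of the female with the male log2 CPM over strains gives the likeness of the sexes of a strain. Over 59 strains 1 of the 10 genes was correlated by the adjusted p of Pearson's r, where 51.5% of all genes were and the median r of all genes was 0.296, and 3 by that of Spearman's rho, where 53.1% of all genes were. The gene that passed by both was Adrb3 (Pearson r = 0.36, Spearman rho = 0.31, permutation p = 0.0048 and 0.0159, adjusted p = 0.0136 and 0.0341, r = 0.29 without the 2 farthest strains). Cidec passed by rho alone, at r = 0.29 and rho = 0.32 (permutation p = 0.0263 and 0.0138, adjusted p = 0.0508 and 0.0308, r = 0.29 without the 2 farthest). Pde3b did so as well, at r = 0.26 and rho = 0.32 (permutation p = 0.0428 and 0.0143, adjusted p = 0.0742 and 0.0317, r = 0.32), and Lipe was at r = 0.06 and rho = 0.13 (permutation p = 0.635 and 0.331, adjusted p = 0.67 and 0.375). In the 19 strains with both lymphocyte scores below 3, 7 genes were correlated by Pearson's r, where 46.7% of all genes were, and 8 by Spearman's rho, where 37.1% were. The highest by r was Cidec (r = 0.87, rho = 0.83, permutation p = 1e-05, the smallest it can give, and 4e-05, adjusted p = 0.000256 and 0.00111, r = 0.80 without the 2 farthest strains), followed by Pnpla2, which was highest by rho (r = 0.82, rho = 0.86, permutation p = 4e-05 and 1e-05, adjusted p = 0.000612 and 0.00059, r = 0.75). Lipe, G0s2 and Plin1 did not pass there by r, which was 0.52, 0.45 and 0.496 (adjusted p = 0.0512, 0.0917 and 0.0626), and G0s2 passed by rho (0.55, adjusted p = 0.0462). In the 17 strains with both scores above 3 none was correlated by either measure, at an unadjusted p under 0.05 either, where 20.8% of all genes were by Pearson's r and 13.9% by Spearman's rho, and r ran from -0.22 (Pnpla2) to 0.40 (Cidec). Without NZW/LacJ, Cidec had r = 0.38 and Adrb3 r = 0.36 over the remaining 58 strains. Strains of a recombinant family share parents and are not independent of each other. AXB19/PgnJ, AXB19a/PgnJ and AXB19b/PgnJ share a line number in their labels and were counted as separate strains.

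**Figure D4:**
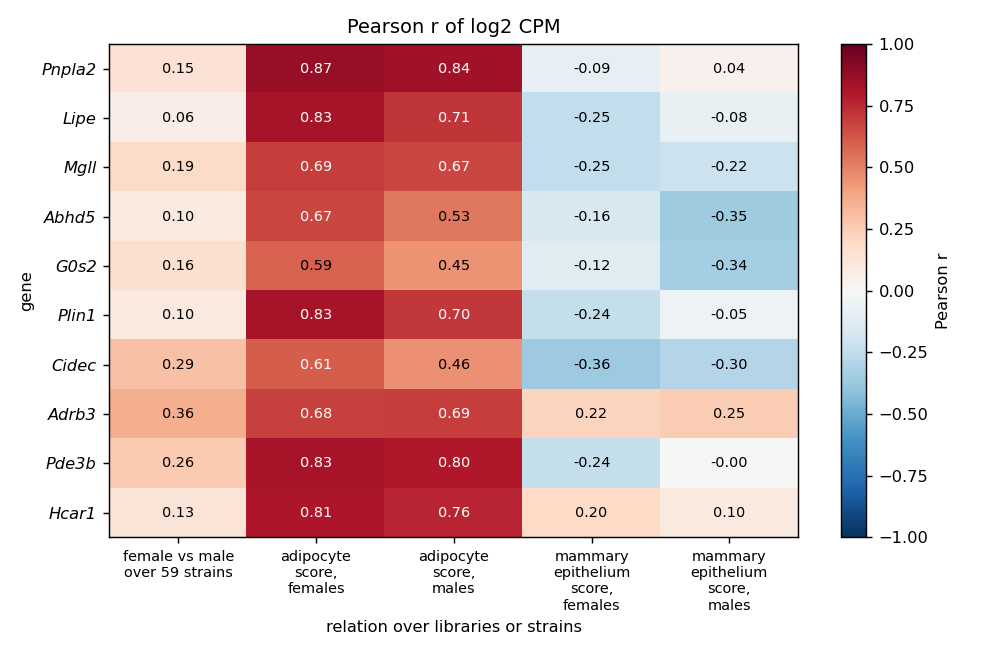
Pearson r of log2 CPM (colour and printed value) for each gene, between the female and male library over 59 strains and with the adipocyte and the mammary epithelium score over 67 female and 74 male libraries. The adipocyte columns held values from 0.45 to 0.87, and the other columns values from -0.36 to 0.36.

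All 10 genes were correlated with the adipocyte score in both sexes by either measure, where 56.6% of all genes were in females and 53.6% in males by Pearson's r, and 60.6% and 52.8% by Spearman's rho. Pnpla2 was highest in both, with r = 0.87 and rho = 0.87 in females (n = 67, permutation p = 1e-05 for each, the smallest it can give, adjusted p = 4.73e-05 and 4.35e-05, r = 0.84 without the 2 farthest libraries). In males Pnpla2 had r = 0.84 and rho = 0.84 (n = 74, permutation p = 1e-05 for each, adjusted p = 4.93e-05 and 5.35e-05, r = 0.81). By r, Pnpla2 ranked 6 of 16765 genes in females and 29 in males. By r G0s2 was lowest, with r = 0.59 and rho = 0.56 in females (permutation p = 1e-05 for each, adjusted p = 4.73e-05 and 4.35e-05, r = 0.51 without the 2 farthest) and r = 0.45 and rho = 0.42 in males (permutation p = 7e-05 and 0.00019, adjusted p = 0.000264 and 0.00068, r = 0.37). By rho Cidec was lowest in females, at 0.54, and G0s2 in males. Within the sides of the lymphocyte division the relation of Pnpla2 was much the same, with r of 0.81 at the lower and 0.87 at the higher score in females and 0.804 and 0.82 in males. That of Cidec was not, with r of 0.05 and 0.74 in females and 0.17 and 0.42 in males. Nor was that of G0s2, with r of 0.22 and 0.61 in females and 0.16 and 0.47 in males. Abhd5 had r of 0.39 and 0.66 in females and 0.24 and 0.55 in males.

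Over libraries the genes of the set were positively correlated in most pairs. All 45 pairs had a Spearman rho above 0 in females, with a median of 0.72, and all 45 in males, with a median of 0.58. Of the 140524230 pairs of all 16765 genes tested 50.1% lay above 0 in females and 49.9% in males, with a median rho of 0.0006 and -0.0004. Without the libraries against their label the medians of the 45 pairs were 0.72 and 0.57. Of these 90 relations the closest was that of Lipe with Plin1, with rho = 0.97 and r = 0.97 in females (n = 67) and rho = 0.96 and r = 0.95 in males (n = 74), a permutation p of 1e-05 for each, the smallest it can give, and r = 0.96 and 0.94 without the 2 farthest libraries. The loosest was Cidec with Adrb3, with rho = 0.06 and r = 0.05 in females (permutation p = 0.621 and 0.667) and rho = 0.05 and r = 0.05 in males (permutation p = 0.647 and 0.672). Adrb3 was closest to Hcar1, the other receptor, with rho = 0.696 and r = 0.72 in females and rho = 0.76 and r = 0.77 in males (permutation p = 1e-05 for each). The 36 pairs without Adrb3 had a median rho of 0.75 in females and 0.61 in males over all libraries, and within the sides of the lymphocyte division 0.45 and 0.29 at the lower and 0.71 and 0.51 at the higher score. The 9 pairs with Adrb3 went otherwise, with a median rho of 0.46 in females and 0.50 (0.503) in males over all libraries, 0.53 and 0.62 at the lower and 0.58 and 0.42 at the higher score. Within the sides some pairs fell below 0. Of the 9 with Adrb3, 7 lay above it in females at the lower and in males at the higher score. Of the 36 without it, 35 did in males at the lower score. The lowest rho was -0.27, for Cidec with Adrb3 in females at the lower score.

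**Figure D5:**
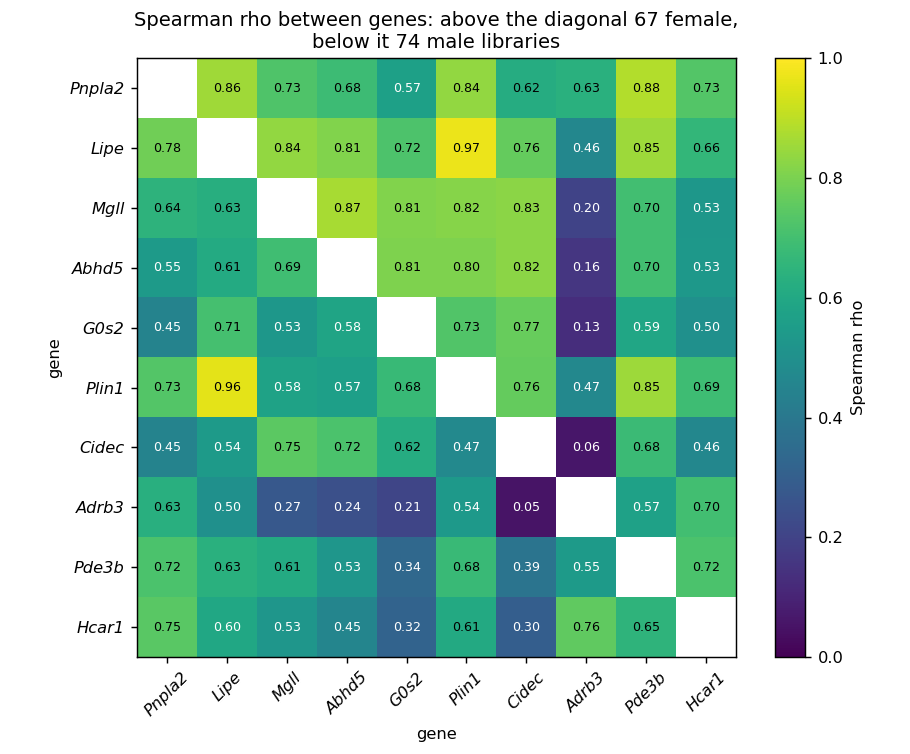
Spearman rho of log2 CPM (colour and printed value) for each pair of genes over 67 female libraries above the diagonal and 74 male libraries below it. Lipe with Plin1 was highest at 0.97 and 0.96, and Cidec with Adrb3 lowest at 0.06 and 0.05.

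Outside the set, likeness was measured as the mean of Spearman rho over the 67 female and over the 74 male libraries. The gene most like Plin1 was Cebpa, a transcription factor of adipocytes, at 0.95, followed by Rab34 at 0.91. Lipe had the same nearest genes, Cebpa at 0.93 and Rab34 at 0.92. Pnpla2 was nearest to Hibadh (0.901) and Hsd17b10 (0.89), both mitochondrial enzymes, Mgll to Pex19 (0.898) and March2 (0.89), and Abhd5 to Ubqln1 (0.902) and Pex13 (0.897). Pex13 and Pex19 serve the assembly of peroxisomes. Cidec was nearest to Lgals1 (0.87) and Bcap31 (0.85), Pde3b to Negr1 (0.87) and Aldh6a1 (0.86), and G0s2 to Slc25a25 (0.84) and Dolk (0.82). Hcar1 was nearest to Hcar2 (0.84), a related receptor gene whose reads could be shared with it, and to Pfkfb1 (0.799). Adrb3 had the least alike neighbours, Timm21 and Slc43a1, both at 0.78.

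No difference between strain families was called in the 10 genes. In females 8.73% of 20270 genes were called and in males 13.1% of 19283 (edgeR quasi-likelihood F test of the family terms). None of the 10 had an unadjusted p under 0.05 in females, and 3 had one in males, namely Plin1 (adjusted p = 0.0803), Abhd5 (adjusted p = 0.111) and Pde3b (adjusted p = 0.115), and limma on log2(TPM + 1) called none in either sex. Plin1 in males was at 2174 ± 445 CPM in 3 CXB, 1859.6 ± 590.0 CPM in 11 AXB/BXA, 1679.5 ± 395 CPM in 34 BXD, 1565 ± 503 CPM in 23 classical inbred and 1038 ± 229 CPM in 3 BXH strains. The CXB and BXH families thus held the ends, with 3 strains each.

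The sex difference was not called as different between families for any of the 10 genes (edgeR, adjusted p = 0.99996 for each, none at an unadjusted p under 0.05). The same held for all 16765 genes (0.0%), of which 518 had an unadjusted p under 0.05. Cidec was lower in the female in 23 of 26 BXD, 8 of 9 AXB/BXA, 3 of 3 CXB, 1 of 1 BXH and 16 of 20 classical inbred strains.

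The BXD strains descend from C57BL/6J and DBA/2J, each present as 1 library per sex, which gives these comparisons no error. Adrb3 in females was at 387 CPM in C57BL/6J and 172 CPM in DBA/2J, and of 32 BXD strains 18 were below both parents, 2 above both and 12 between them. Adrb3 in males was at 113.7 and 58.5 CPM in the parents, and of 34 BXD strains 7 were below both, 16 above both and 11 between them, with a highest level of 673 CPM. Cidec in females was at 1074 and 1455 CPM in the parents, and the BXD strains ran from 240.1 to 3458 CPM, 18 of 32 below both, 10 above both and 4 between them. The female BXD34/TyJ and BXD69/RwwJ libraries, which go against their label, are among those above both, at 1504 and 1932 CPM. For Adrb3 they are among those below both, at 29.9 and 39.9 CPM. Cidec in males was at 2445 and 1423 CPM in the parents, and the BXD strains ran from 817.5 to 3555 CPM, 14 of 34 below both, 3 above both and 17 between them. In both sexes the highest Cidec level was that of BXD24/TyJ-Cep290<rd16>/J, the strain labelled with the rd16 allele. The parent with the lower Cidec level was the one with the higher lymphocyte score in each sex, C57BL/6J in females (5.57 against 0.13 in DBA/2J) and DBA/2J in males (5.24 against 0.84 in C57BL/6J), and the part of the score in the order of the parents was not tested.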

How the data were processed

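RNA-seq of iWAT was measured in 141 libraries. The authors quantified reads with kallisto (version 0.46.1) against Ensembl transcripts of GRCm38 and collapsed them to gene level with tximport. They deposited estimated counts per gene, of which 30.3% were not whole numbers, and TPM. The libraries were stranded, and how kallisto treated strand is not given in the sources used here. Table columns were matched to libraries, and 0 columns of values were left unused. For this report estimated counts were rounded, filtered with filterByExpr, scaled by TMM and tested with edgeR (version 4.0.16, R 4.3.3) in the quasi-likelihood framework with ~ Strain + Sex over the matched strains, where strain pairs the libraries, with Benjamini-Hochberg adjustment over all genes tested and a threshold of 0.05. Strain families were tested within each sex. Correlations used log2 CPM (prior count 2) and 100000 permutations. The tests were tested on simulated data. DESeq2 (version 1.42.0) and limma (version 3.58.1, on TPM with pseudocounts of 1 and 0.1) served as alternatives, as did other scalings, filters, covariates and sets of strains. Named genes were the 10 genes, listed pathway genes that changed most or name a step described, the 2 genes most like each, and strains at the extremes. The genes, the lists and the comparisons were chosen with earlier results of these data known.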

Additional observations from a re-analysis of the deposited data

Results flagged for a closer look

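In the 9 AXB/BXA females, the lowest Plin1 library, AXB12/PgnJ at 219 CPM, lay far from the others, the next lowest being at 1023 CPM, and the gap to it was 0.515 of the whole range. Of 10 groups tested for a library far from the others this was the only one. Chance flags about 1 in 20 groups, but that rate does not carry over here, since the 10 groups are the same 9 libraries, 1 group per gene, the genes are correlated, and AXB12/PgnJ was the lowest library for all 10.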

How the results depend on the processing

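The sex difference kept 8 genes (Pnpla2, Lipe, Mgll, Abhd5, G0s2, Plin1, Cidec and Pde3b) lower in females under 14 alternatives, and Hcar1 under 12 of them. The exception was the mammary epithelium score as a covariate, which left 0 of the 10 genes and 0 of the 42 listed pathway genes called and gave Lipe, G0s2 and Plin1 a log2FC of 0.0255, 0.13 and 0.0251. Without the strain block, which pairs the libraries, 9 genes and 26 of the listed pathway genes were called, in place of 9 and 31. The listed pathway genes called were 22 with library totals, 23 with limma on TPM, 23 and 26 in the strains with both lymphocyte scores below and above 3, and at most 34 (without mitochondrially encoded genes). Scaling by library totals moved the median log2FC of all genes to 0.12 and the share of lower genes among all called genes from 51.2% to 27.2%, and limma on TPM moved that share to 35% and 34.7%. The strain difference was called for 3 genes, but for 2 with limma on log2(TPM + 1), 10 with the adipocyte score, 7 with the lymphocyte score, 5 without AXB12/PgnJ, and 10 and 0 in the strains with both lymphocyte scores below and above 3. The median female-male r of the 10 genes was 0.15, and 0.72 and 0.14 in the strains with both scores below and above 3, beside 0.296, 0.496 and 0.37 over all genes. The median r with the adipocyte score in males was 0.70 (0.698), and 0.55 on log2(TPM + 1). The highest over the lowest median level was 32.2 in females and 49.4 in males in TPM, and 18.01 and 23.3 in CPM, where Mgll was highest. Why these values moved was not tested. The lowest estimated count of these genes was 71, and the part of depth in their values was not tested. With 1 library per strain and sex, a single strain has no error of its own.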
